A study of Mus musculus with 6 samples.

Results

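The proteasome subunit genes were described in the liver of Mst1-null mice with and without deletion of Mst2. Members were the genes whose symbol is Psma, Psmb, Psmc or Psmd followed by a number, without the immune subunit genes Psmb8, Psmb9 and Psmb10. This gave 36 of the 22068 gene symbols, 16 of the core particle and 20 of the regulatory particle. Polyadenylated RNA was sequenced from liver tissue of C57BL/6 mice at 6 weeks of age, in 3 control libraries and 3 libraries labelled Mst1/2 liver-dKO (dKO below). Both groups carried Mst1-/- and Mst2fl/fl, and they differed in the transgene, alb-Cre-/- in control and alb-Cre+/+ in dKO. By these labels the controls also lack Mst1, and the contrast is the presence of Cre recombinase driven by the albumin promoter, which is active in hepatocytes. Cells keep the floxed gene where this promoter was never active in them or in the cells they came from. Whole tissue was used, and which cells carry the deletion was not examined. The labels do not tie each library to its own animal, so each p-value measures only how these samples vary, and that variation may be technical.

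The proteasome is the large protease that degrades ubiquitin-tagged proteins. Its core particle is a barrel of stacked rings, with outer rings of the alpha subunits (Psma genes) that gate the entrance and inner rings of the beta subunits (Psmb genes), some of which cut peptide bonds. The regulatory particle caps the barrel. Its ATPase ring (Psmc genes) unfolds substrates, and its non-ATPase subunits (Psmd genes) bind ubiquitin and remove it. Mst1 and Mst2, encoded in the mouse by Stk4 and Stk3, are the Hippo pathway kinases upstream of the coactivators YAP and TAZ. When proteasome capacity falls short, the transcription factor NRF1 (Nfe2l1) is known to raise the subunit genes together.

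Levels are RPKM, read counts scaled to gene length and library size, which the values were inferred to be. A log2 change compares dKO with control after log2(RPKM + 1), and for genes of low level it comes out too small. The limma fit took in the 11062 genes whose mean reached 1 RPKM, and a call is a Benjamini-Hochberg adjusted p under 0.05. Depth estimated from the spacing of low values was 16.9 to 24.5 M reads. The RPKM sums were 364571 to 368246 in control and 324034 to 352678 in dKO libraries. Stk3 stood at 6.00, 5.42 and 5.20 RPKM in control and 5.14, 4.25 and 5.32 RPKM in dKO replicates 1, 2 and 3, so the groups overlapped. Stk4, the gene of Mst1, stood at 5.50, 4.69 and 4.66 RPKM in control and 5.84, 4.93 and 5.76 RPKM in dKO, about the level of Stk3 in libraries labelled Mst1-/-. These values thus show neither deletion; a gene-wide value can include reads from exons outside a deleted part, and the deleted exons were not examined. As background, calls took in 17.8% of tested genes as higher in dKO and 2.17% as lower. Among cell type markers, all 8 tested of 12 cholangiocyte and progenitor genes were called higher, with a summed level of 40.6 to 96.4 RPKM in control and 385 to 1065 RPKM in dKO. The 12 macrophage markers summed to 200 to 420 and 329 to 466 RPKM, with 2 called higher (16.7%). Hepatocyte markers summed to 48463 to 62389 and 41633 to 48473 RPKM, with 3 of 9 called lower, and 4 of 10 proliferation markers were called higher. The hepatocyte sum was mostly Alb, at 36157 to 46961 RPKM in control and 34054 to 37822 RPKM in dKO, where the groups overlapped. Spp1 was the largest part of the cholangiocyte and progenitor sum, at 18.7 to 64.7 RPKM in control and 305.5 to 909.7 RPKM in dKO. None of these markers was at 0 in all libraries, although Ggt1 of the cholangiocyte list was listed at 0 in the control libraries. The part these cells play in the values below was not tested, and in whole tissue fewer cells of a type and less RNA per cell cannot be told apart.

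Control replicate 2 stood apart in these genes. Psmb8, Psmb9 and Psmb10 encode the catalytic subunits that replace Psmb5, Psmb6 and Psmb7 in the interferon-inducible immunoproteasome. Psmb8 stood at 13.2, 103 and 9.80 RPKM in control replicates 1, 2 and 3 and at 16.6, 12.9 and 17.5 RPKM in dKO. Psmb9 stood at 7.80, 86.1 and 7.35 RPKM in control and 11.0, 10.8 and 19.7 RPKM in dKO. For Psmb10 the values were 22.1, 78.5 and 15.4 RPKM in control and 19.7, 19.8 and 21.1 RPKM in dKO. Only control replicate 2 was high in all 3 genes, above every dKO library. Irf1, Tap1 and Gbp2, interferon response genes chosen after their values were seen, were also highest there, with Tap1 at 6.25, 50.1 and 5.70 RPKM in the controls and 8.66 to 10.8 RPKM in dKO. The log2 change of Tap1 was -0.313 (limma adjusted p = 0.795). Without control replicate 2 it was 0.645 and Tap1 was called higher (limma adjusted p = 0.0225). The constitutive members were often high in that library too: 18 of 34 tested members were higher in it than in the other 5 libraries, as were 15% of all tested genes. They numbered 9 of 14 in the core and 9 of 20 in the regulatory particle. Where control replicate 2 ended or made a call or turned the sign of a printed change, the value without it is given too.

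Few proteasome genes passed the test. Of 34 tested members 2 were called higher and 1 lower in dKO, which is 8.82% of them, beside 19.9% of all tested genes (17.8% higher and 2.17% lower). Those higher were Psmd8 and Psmd10 of the regulatory particle, and Psmb7 of the core was lower. The groups did not overlap at 7 members, 3 with dKO higher and 4 with dKO lower, or 20.6% beside 45.1% of all tested genes (38.3% higher and 6.73% lower). Psma8, a testis form of an alpha subunit, lay under the level needed for the test with 0.164 to 0.513 RPKM, and Psmb11, the thymus-specific beta subunit, was listed at 0 in all 6 libraries.

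Calls depended on the scaling and on single libraries. The median log2 change over all tested genes was 0.23 and the median-ratio scaling moved it to -0.005. After that scaling 5 members were called, all lower: Psma2, Psma4, Psmb6 and Psmb7 of the core and Psmc2 of the ATPase ring. The share of all genes called lower was then 5.55% and the share called higher 7.89%. Quantile normalization left Psma4 and Psmb7 called lower and none higher, beside 5.01% and 6.57% of all genes. Without control replicate 2 the members called were Psmb5, Psmd8 and Psmd10, all higher, beside 17.9% of all genes called higher and 2.17% lower. Leaving out control replicate 1 or dKO replicate 3 left 0 members called with limma, beside 7.65% and 10.3% of all genes called in either direction. Without control replicate 3, dKO replicate 1 or dKO replicate 2 there was 1 each, namely Psmb7, Psmb6 and Psmc5, beside 9.63%, 12% and 15.4% of all genes.

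**Figure D1:**
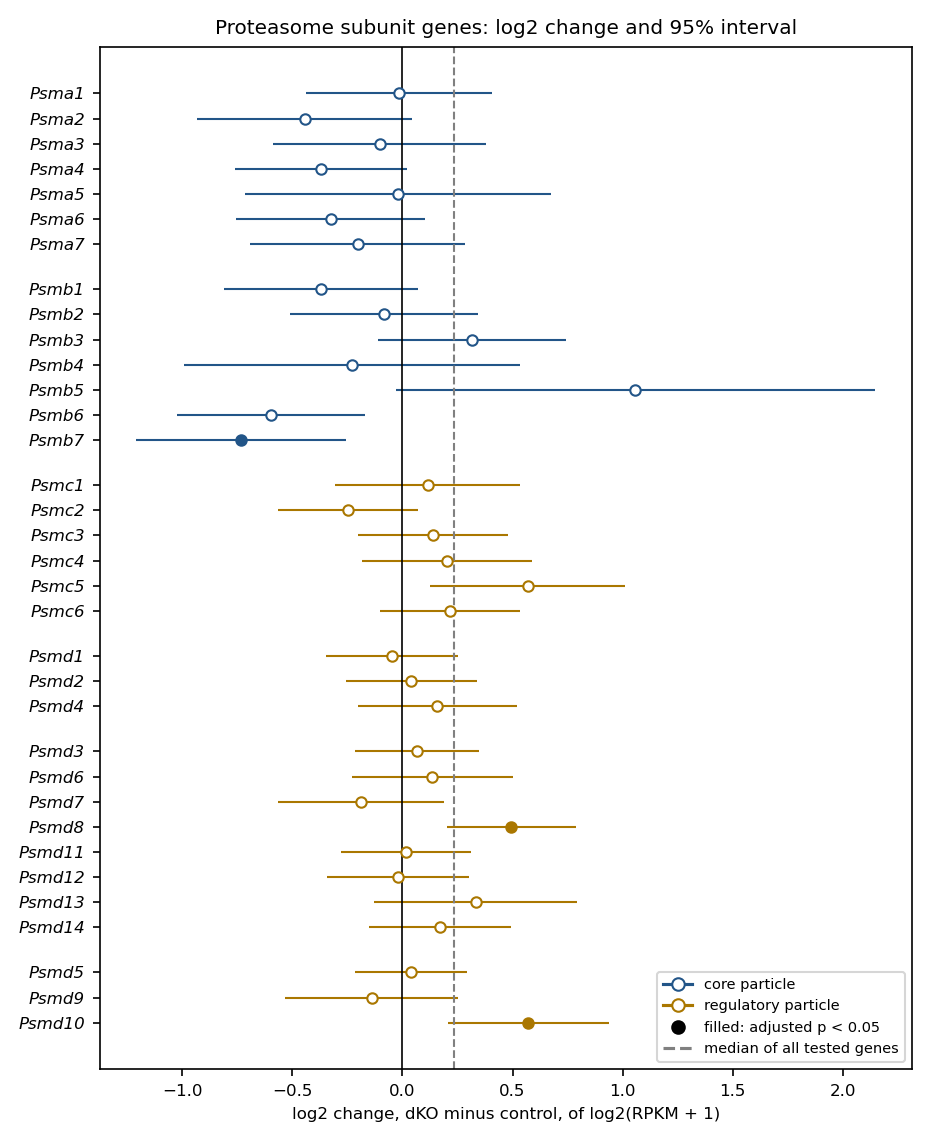
Log2 change, dKO minus control, of the 34 tested proteasome genes on the log2(RPKM + 1) scale (x axis), grouped from top to bottom as alpha ring, beta ring, ATPase ring, non-ATPase base, lid and base chaperones. Points are limma estimates with 95% intervals from 3 libraries a group, filled where called, and the dashed line is the median of all tested genes at 0.23: Psmb7 lies lowest at -0.73 and Psmb5 highest at 1.06.

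The 7 alpha ring genes had log2 changes from -0.44 to -0.017, and 0 were called. All 7 stayed negative after median-ratio scaling and quantile normalization. Both steps lowered the all-gene median, from 0.23 to -0.005 and -0.034, and so tended to keep negative changes negative. Without control replicate 2, 4 of 7 were negative. Psma2 had the lowest, with 15.4, 25.8 and 15.8 RPKM in control and 15.9, 10.9 and 13.5 RPKM in dKO. Its change of -0.44 ± 0.21 (SE) had a limma adjusted p of 0.163, and 0.0489 after median-ratio scaling. The groups overlapped at Psma2, and control replicate 2 was far above the other controls; without it the change was -0.21. Psma4 held 25.2, 36.0 and 22.8 RPKM in control and 21.1, 20.1 and 21.96 RPKM in dKO, where the groups did not overlap by a narrow gap. It was called lower after median-ratio scaling (limma adjusted p = 0.0342) and quantile normalization (0.0441), and its value was 0.148 without them. Its log2 change was -0.37, and -0.18 without control replicate 2. Psma1 stood at 39.9 ± 10.1 and 38.8 ± 4.08 RPKM (means ± SD, n = 3 libraries a group), with a log2 change of -0.017 that was 0.17 without control replicate 2.

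Levels within the alpha ring spanned a wide range although the assembled ring holds its subunits in equal number. Control means ran from 1.63 ± 0.80 RPKM for Psma5 and 3.01 ± 0.97 RPKM for Psma3 to 96.8 ± 16.5 RPKM for Psma6. In the beta ring they ran from 4.15 ± 1.26 RPKM for Psmb3 to 104 ± 30.6 RPKM for Psmb7. Members of the regulatory particle lay closer together, from 5.54 ± 1.30 RPKM for Psmd10 to 44.2 ± 5.09 RPKM for Psmc3. Many subunit genes have processed pseudogenes, and GENCODE M21 lists ones named after Psmb5, Psmb6 and Psmb7. How reads matching several copies were counted is not given in the sources used here, so these levels are uncertain.

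The beta ring held both the lowest and the highest log2 change of all members, and both belong to catalytic subunits. Psmb7, whose product has the trypsin-like activity, stood at 91.1, 139 and 81.8 RPKM in control and 68.2, 57.8 and 56.2 RPKM in dKO. All 3 dKO libraries were below all controls. Psmb7 fell by 0.73 ± 0.21 (SE) on the log2 scale, to 0.585 of the control mean, with a limma adjusted p of 0.0417. The call held after both scalings and without control replicate 3. It was lost without control replicate 1 (0.0842), control replicate 2 (0.0527), dKO replicate 1 (0.0644), dKO replicate 2 (0.0933) and dKO replicate 3 (0.12), and over all 13 alternatives limma adjusted p for Psmb7 ran from 0.024 to 0.12.

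Psmb6, which encodes the caspase-like subunit, had no overlap either, with 105, 98.9 and 84.7 RPKM in control and 79.0, 62.7 and 50.7 RPKM in dKO. Its log2 change was -0.60 ± 0.19 (SE; limma adjusted p = 0.0552), just above the threshold. It passed after median-ratio scaling (0.0415) and without dKO replicate 1 (0.042).

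Psmb5, the chymotrypsin-like subunit gene and the target of clinical proteasome inhibitors, went the other way. It stood at 10.7, 35.2 and 18.6 RPKM in control and 38.6, 28.5 and 63.0 RPKM in dKO. Control replicate 2 lay above dKO replicate 2, so the groups overlapped, and dKO replicate 3 was far above the rest. The dKO mean was 2.02 times the control mean, and the log2 change was 1.06 ± 0.46 (SE), with a 95% interval of -0.030 to 2.15 and a limma adjusted p of 0.14. Without control replicate 2 Psmb5 was called higher, with a log2 change of 1.48 and a limma adjusted p of 0.0421. Leaving out control replicate 1 gave 0.66 (0.297), and leaving out dKO replicate 3 gave 0.76 (0.339).

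Ratios within a library do not depend on its scaling. The ratio of Psmb5 to Psmb6 was 0.101, 0.356 and 0.220 in control replicates 1, 2 and 3 and 0.488, 0.456 and 1.24 in dKO replicates. Against Psmb7 the Psmb5 ratio was 0.117, 0.254 and 0.228 in control and 0.566, 0.493 and 1.12 in dKO. For both ratios every dKO library exceeded every control, while the ratio of Psmb7 to Psmb6 overlapped, with 0.866, 1.40 and 0.966 in control and 0.863, 0.923 and 1.11 in dKO. These pairs were set side by side with the values known, so they are given without a test.

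**Figure D2:**
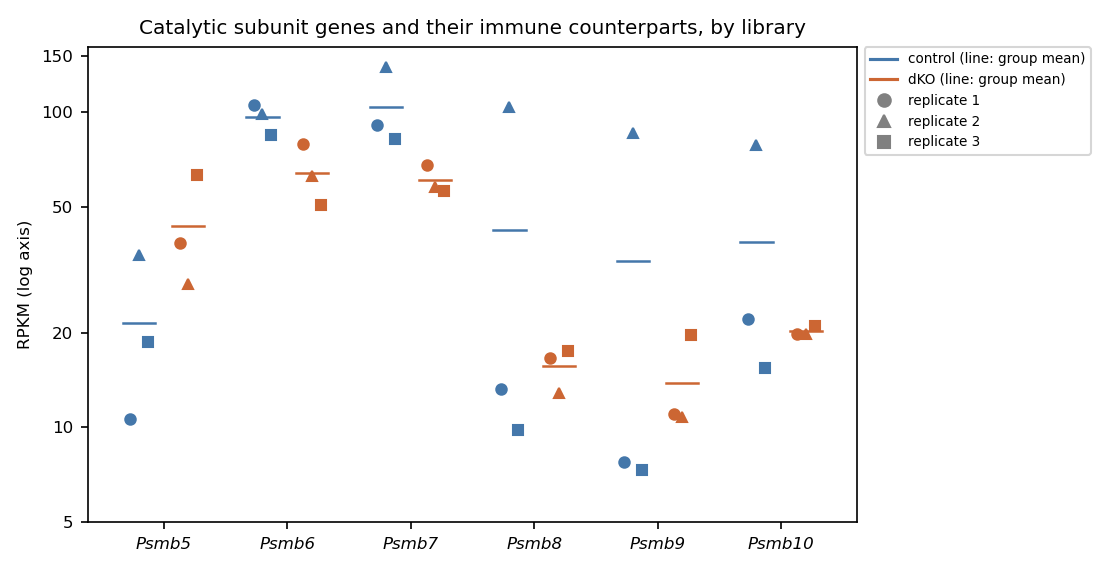
RPKM on a log axis of the catalytic subunit genes Psmb5, Psmb6 and Psmb7 and of their immune counterparts Psmb8, Psmb9 and Psmb10 in the 3 control (blue) and 3 dKO (orange) libraries, with marker shapes for the replicate and lines for group means. Psmb6 and Psmb7 are lower in every dKO library, Psmb5 overlaps through control replicate 2 (35.2 RPKM), and the same library lies at 78.5 to 103 RPKM in the immune genes.

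The other beta subunits are structural in the constitutive core. Psmb3 was the only one with a positive log2 change, 0.32 ± 0.19 (SE), with 3.39, 5.60 and 3.46 RPKM in control and 4.88, 4.88 and 6.23 RPKM in dKO. Psmb1, Psmb2 and Psmb4 had log2 changes of -0.37, -0.085 and -0.23, and all 4 missed the threshold. Psmb4 showed the high control replicate 2 again, at 51.3, 100.2 and 39.2 RPKM in control beside 63.1, 43.4 and 45.4 RPKM in dKO, and without that library its log2 change was 0.15.

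Upstream sequence is shown for the oppositely placed Psmb5 and Psmb6 and for the called regulatory genes Psmd8 and Psmd10. The 120 bases before the RefSeq start site (GRCm38.p6) are given 5′ to 3′ on the gene's strand, with matches to the searched motifs in capitals. Motifs were TGACNNNGC, the core of the antioxidant response element bound by NRF1 and NRF2, CCAAT, bound by NF-Y, and CCGGAAG, bound by ETS factors, each on both strands. No matches overlapped in these windows. The windows were chr14:54617996-54618115 (minus strand) for Psmb5, chr11:70525237-70525356 (plus) for Psmb6, chr7:29180674-29180793 (minus) for Psmd8 and chrX:140956712-140956831 (minus) for Psmd10.
Psmb5: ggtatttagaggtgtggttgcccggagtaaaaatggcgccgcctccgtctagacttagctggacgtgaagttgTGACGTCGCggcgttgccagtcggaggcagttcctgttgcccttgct
Psmb6: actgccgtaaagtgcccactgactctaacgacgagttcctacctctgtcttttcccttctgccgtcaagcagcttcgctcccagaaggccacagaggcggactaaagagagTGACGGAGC
Psmd8: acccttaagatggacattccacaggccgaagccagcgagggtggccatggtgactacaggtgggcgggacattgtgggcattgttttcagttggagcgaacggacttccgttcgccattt
Psmd10: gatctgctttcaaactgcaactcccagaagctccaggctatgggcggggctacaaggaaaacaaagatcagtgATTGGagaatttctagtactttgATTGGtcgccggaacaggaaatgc

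Psmb5 and Psmb6 each held a TGACNNNGC match, starting 47 and 9 bases before the start site, although their log2 changes had opposite signs. Psmd8 held no match in this window and Psmd10 held 2 CCAAT matches on the opposite strand. RefSeq promoters of 300 bases were at hand for 29 of the 36 members, 31 promoters in all. They were lacking for Psma8, Psmb1, Psmb2 and Psmb7 of the core and for Psmc3, Psmd3 and Psmd7 of the regulatory particle. TGACNNNGC was in 5 of the 31 (16.1%), of Psmb5, Psmb6, Psmc6, Psmd9 and Psmd12, and in 12.4% of all 32851 promoters. CCAAT was in 12 (38.7%) and in 37.4% of all. CCGGAAG was in 11 (35.5%) and in 8.86% of all, and of its 10 members 9 belong to the regulatory particle and 1, Psma6, to the core. This split leaves out the members without a promoter, and the regulatory particle has more members. A match is a run of letters and not a measured binding site.

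In the regulatory particle, 5 of 6 ATPase ring genes had a positive log2 change, 1 of 6 after median-ratio scaling and 4 of 6 after quantile normalization, and 0 were called. Most tested genes were also positive before scaling, with 23.9% negative and a median of 0.23. That median was -0.005 after median-ratio scaling and -0.034 after quantile normalization. Psmc5, an ATPase subunit gene, stood at 18.6, 25.6 and 22.6 RPKM in control and 32.9, 26.2 and 42.5 RPKM in dKO. The groups did not overlap, by a small gap at dKO replicate 2. Its log2 change was 0.57 ± 0.19 (SE; limma adjusted p = 0.069), and it was called higher without dKO replicate 2 (0.0408). Psmc2 had the lowest change of the particle, with 33.1, 42.8 and 33.2 RPKM in control and 31.0, 29.3 and 30.6 RPKM in dKO. Every dKO library was below the controls, with a log2 change of -0.25 ± 0.14 (SE), a limma adjusted p of 0.223, and 0.037 after median-ratio scaling. Without control replicate 2 the Psmc2 change was -0.13. Psmc1 stood at 14.7 ± 3.76 and 15.8 ± 2.25 RPKM, a log2 change of 0.11 that turned negative after both scalings.

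The base scaffold genes Psmd1 and Psmd2 and the ubiquitin receptor gene Psmd4 had small log2 changes of -0.047, 0.040 and 0.16, and 0 were called. Without control replicate 2 the Psmd1 change was 0.030. Psmd2, with 22.8, 28.2 and 25.3 RPKM in control and 27.3, 23.9 and 27.2 RPKM in dKO, showed full overlap of the groups. The 95% interval of its log2 change was -0.26 to 0.34. Adrm1, the second ubiquitin receptor gene, is outside the Psm naming. It had 8.19, 6.46 and 6.28 RPKM in control and 4.09, 5.78 and 5.57 RPKM in dKO, so that all dKO libraries were lower. Its log2 change was -0.38 ± 0.16 (SE; limma adjusted p = 0.12), and it passed after median-ratio scaling (0.0455) and quantile normalization (0.0429).

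In the lid, which holds the enzyme that removes ubiquitin from substrates, 1 of 8 genes was called. Psmd8, a structural lid subunit gene, stood at 41.6, 43.5 and 46.7 RPKM in control and 65.0, 58.1 and 63.9 RPKM in dKO. The groups were separated by more than the range within either one. Psmd8 rose 1.42-fold, a log2 change of 0.49 ± 0.13 (SE; limma adjusted p = 0.0314). The call held without control replicate 2, and it was lost without control replicate 1 (0.0991), control replicate 3 (0.0798), dKO replicate 1 (0.0998), dKO replicate 2 (0.0525) or dKO replicate 3 (0.0671). Psmd8 also lost it after median-ratio scaling (log2 change 0.21, limma adjusted p = 0.295, the highest over 13 alternatives) and after quantile normalization (0.059).

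The other lid genes had log2 changes from -0.19 for Psmd7 to 0.33 for Psmd13. Psmd7 stood at 28.3, 41.4 and 27.8 RPKM in control and 28.4, 28.0 and 27.5 RPKM in dKO, level except for control replicate 2, and its log2 change without that library was -0.006. Psmd14, the deubiquitinase gene itself, stood at 14.2 ± 1.40 and 16.2 ± 2.54 RPKM with overlap of the groups, and its log2 change of 0.17 turned negative after both scalings. Shfm1, which encodes the smallest lid subunit, had 280, 423 and 390 RPKM in control and 381, 364 and 193 RPKM in dKO, with dKO replicate 3 lowest.

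Psmd5, Psmd9 and Psmd10 carry subunit names, yet their products are chaperones that assemble the base and leave it. Psmd10, also called gankyrin and studied as an oncoprotein in liver, stood at 4.38, 6.94 and 5.30 RPKM in control and 9.35, 8.11 and 8.38 RPKM in dKO. All dKO libraries were above all controls. Psmd10 rose 1.55-fold, a log2 change of 0.57 ± 0.16 (SE; limma adjusted p = 0.0389). The call held without control replicate 2 and was lost without any other library, with control replicate 1 at 0.117, control replicate 3 at 0.107, and dKO replicates 1, 2 and 3 at 0.114, 0.0648 and 0.0888. After median-ratio scaling Psmd10 had a log2 change of 0.32 with a limma adjusted p of 0.168, and 0.191 after quantile normalization was the highest over 13 alternatives. Psmd5 stood at 11.0 ± 0.67 and 11.3 ± 0.37 RPKM and Psmd9 at 7.04 ± 1.45 and 6.26 ± 1.03 RPKM, both with overlap.

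Set against each other, the core genes had lower log2 changes than the regulatory genes. The median log2 change was -0.22 over 14 core genes and 0.13 over 20 regulatory genes, beside 0.23 over all tested genes. The log2 change was negative for 12 of 14 core and 5 of 20 regulatory genes, beside 23.9% of all tested genes. After median-ratio scaling, where the all-gene median was -0.005, it was negative for 12 of 14 and 16 of 20. The difference of the medians was -0.34, and it was -0.19 without control replicate 2, where 8 of 14 core genes were negative. After median-ratio scaling the medians were -0.50 and -0.15, so the regulatory median changed sign. The difference was then -0.35, but a factor per library nearly cancels in it, so this scaling could hardly move it. Quantile normalization, which can move it, gave -0.26. Relative to the all-gene median the core lay at -0.45 and the regulatory particle at -0.11, and without control replicate 2 at -0.34 and -0.14.

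Within a library the balance was taken as the mean log2(RPKM + 1) of the 14 core genes minus that of the 20 regulatory genes. It was 0.42, 0.60 and 0.23 in control replicates 1, 2 and 3 and 0.21, 0.11 and 0.074 in dKO replicates. Every dKO library was below every control, though control replicate 3 at 0.231 and dKO replicate 1 at 0.213 nearly met. Group means were 0.42 ± 0.18 and 0.13 ± 0.07, a difference of -0.28 that was -0.19 without control replicate 2 and -0.38 without Psmb5. Summed levels gave a core to regulatory ratio of 1.42, 1.61 and 1.21 in control and 1.16, 1.08 and 0.933 in dKO. The share of all RPKM that the members held overlapped, with 0.298% to 0.394% in control and 0.299% to 0.353% in dKO. As a score over chosen members the balance is given without a p.

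**Figure D3:**
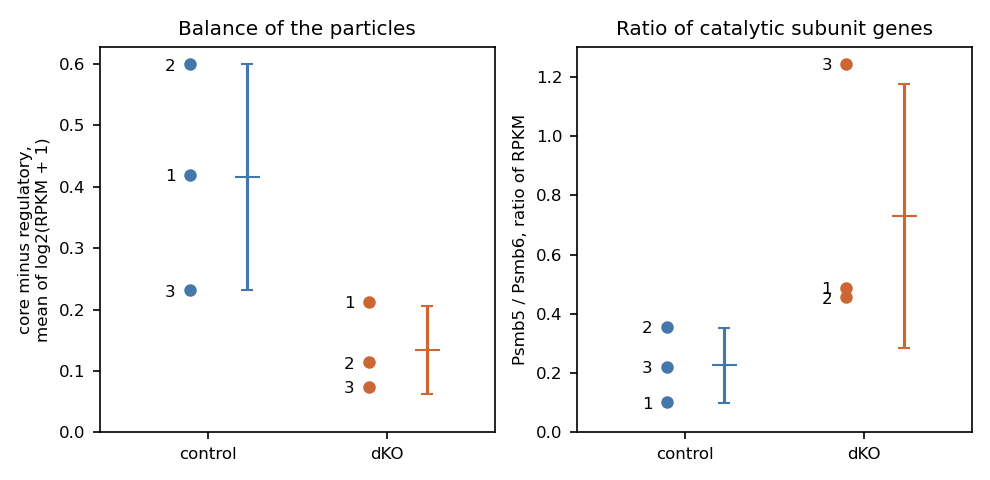
Left, mean log2(RPKM + 1) of the 14 tested core genes minus that of the 20 regulatory genes in each library; right, the ratio of Psmb5 to Psmb6 in RPKM. Points are libraries with their replicate number and bars are mean ± SD (n = 3 libraries a group): the balance is 0.23 to 0.60 in control and 0.074 to 0.21 in dKO, and the ratio is 0.101 to 0.356 and 0.456 to 1.24.

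Transcript level and length differ between the particles. Of the core genes 7 had a mean level of 50 to 150 RPKM, where the 627 other tested genes had a median log2 change of -0.011 and these 7 had -0.33. In the band of 20 to 50 RPKM, 12 regulatory genes had a median of 0.10 and 3 core genes -0.017, beside 0.14 over 1215 other genes. Median transcript length was 975 bases in the core and 1468 bases in the regulatory particle, and the median change of other genes ran from 0.22 to 0.24 across 5 length classes of the 88.9% of tested genes with a length. Abundant genes thus had lower log2 changes in general, and the part of this in the core values was not tested.

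**Figure D4:**
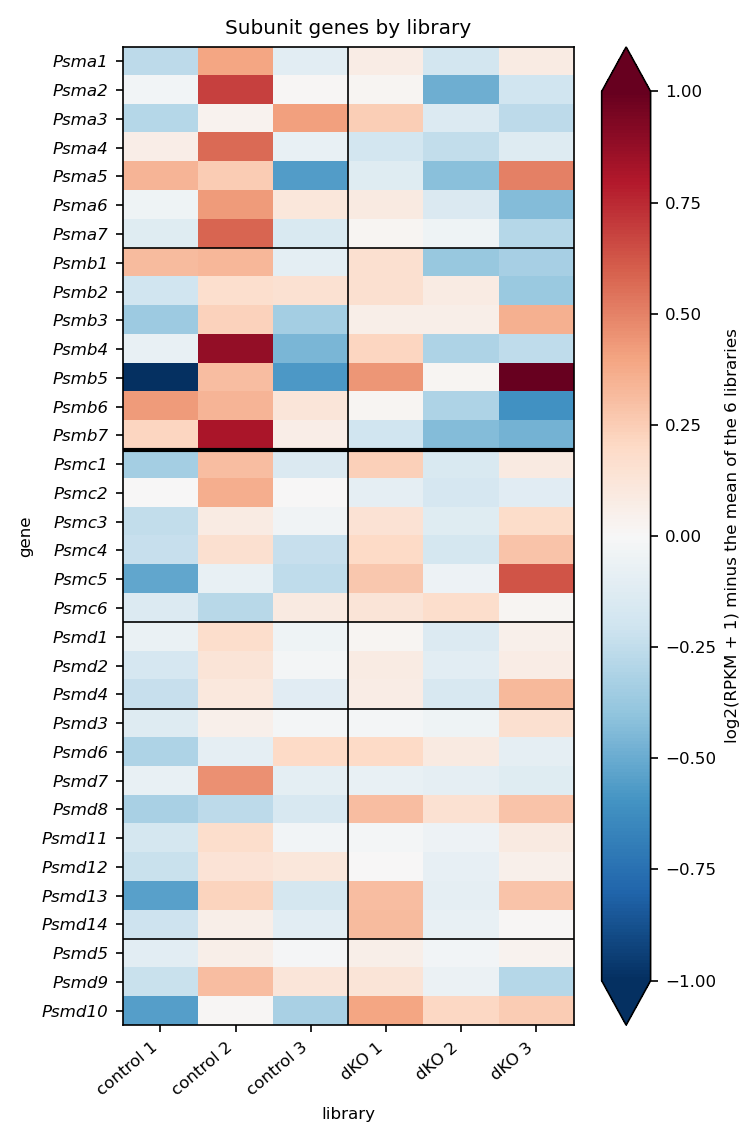
Deviation of each tested member in each library from its mean over the 6 libraries, on the log2(RPKM + 1) scale, with red above and blue below the mean, thin lines between subunit groups and a thick line between core and regulatory particle. Control replicate 2 is red in most core rows, and Psmb5 has the widest deviation, 1.33 below its mean in control replicate 1.

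The genes that assemble, activate and feed the proteasome were taken from 7 lists with 43 tested genes, of which 5 were called higher and 1 lower, or 14% beside 19.9% of all tested genes. Their median log2 change was 0.087. The calls lay in 3 lists, with 2 higher and 1 lower of 9 genes of NRF1 and NRF2 control, 1 higher of 6 ubiquitin and E1 genes, and 2 higher of 6 substrate shuttles. None of 3 immune subunit genes, 5 activators and inhibitors, 5 assembly factors or 9 bound subunits and enzymes was called.

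Among the regulators, Nfe2l1, the gene of NRF1, stood at 25.4, 29.7 and 26.7 RPKM in control and 28.5, 30.3 and 30.8 RPKM in dKO, with overlap and a limma adjusted p of 0.453. Ddi2, the protease that cuts NRF1 into its active form, held 32.8, 35.2 and 37.9 RPKM in control and 27.2, 24.1 and 21.2 RPKM in dKO. Ddi2 fell by 0.53 ± 0.14 (SE) on the log2 scale (limma adjusted p = 0.029), with the call lost without control replicate 1 (0.0627), control replicate 3 (0.102), dKO replicate 2 (0.0634) or dKO replicate 3 (0.0773). Nfe2l2, the gene of NRF2, which responds to oxidative stress, held 44.3, 33.9 and 33.1 RPKM in control and 60.7, 70.3 and 62.2 RPKM in dKO. Nfe2l2 rose 1.74-fold (limma adjusted p = 0.0124), with the call lost after median-ratio scaling (0.103) and without control replicate 3 (0.0524). Mafk, a small MAF partner of both factors, rose 2.61-fold from 3.41 ± 0.98 to 8.91 ± 1.33 RPKM (limma adjusted p = 0.00644). All 13 alternatives kept the Mafk call, at 0.0038 to 0.0238.

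Of the ubiquitin genes, Ubb rose from 76.3, 113 and 99.3 RPKM in control to 141, 142 and 161 RPKM in dKO (limma adjusted p = 0.0403). Ubb lost the call after median-ratio scaling (0.198) and without any library but control replicate 2, with values up to 0.126. Ubiquitin coding repeats are near-identical copies, so the reads assigned to Ubb are uncertain.

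Of the substrate shuttles, Ubqln2 rose 1.66-fold from 6.49 ± 1.00 to 10.8 ± 0.97 RPKM (limma adjusted p = 0.0165). Ubqln2 lost the call after the median-ratio (0.0624) and quantile (0.0663) steps and without control replicate 1 (0.0549) or dKO replicate 3 (0.0507). Sqstm1, the p62 receptor that also serves autophagy, rose 1.44-fold from 87.9 ± 6.25 to 126 ± 7.46 RPKM (limma adjusted p = 0.0365). Sqstm1 lost it after median-ratio scaling (0.296) and without any library but control replicate 2, with values up to 0.141.

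Among activators, Psme1, a subunit gene of the interferon-inducible cap PA28, showed control replicate 2 again, with 34.7, 84.1 and 44.2 RPKM in control and 74.4, 76.7 and 80.6 RPKM in dKO. Its log2 change was 0.60 (limma adjusted p = 0.166), and without control replicate 2 Psme1 was called higher (log2 change 0.96, 0.00804). Psme2, its partner gene, stood at 16.0 ± 6.07 and 12.2 ± 3.86 RPKM. Psme3 and Psme4, genes of nuclear activators, had log2 changes of -0.023 and 0.19, and Psmf1, an inhibitor gene, had 0.19. Pomp, the maturation factor of the core, stood at 55.8 ± 12.5 and 51.5 ± 3.94 RPKM, with a log2 change of -0.095 that was 0.068 without control replicate 2. The immune subunit genes had log2 changes of -0.61, -0.37 and -0.55 for Psmb8, Psmb9 and Psmb10, and without control replicate 2 these were 0.42, 0.74 and 0.12 (limma adjusted p = 0.125, 0.0691 and 0.603).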

How the data were processed

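Liver RNA was measured in 6 libraries, and the deposited files hold 1 value per gene symbol and library. The submitters' processing notes name build mm9; aligner, counting tool and annotation are not given in the sources used here. No label names the unit. The deposited values were taken as RPKM because 74.6% to 80.6% of low values lay within 0.15 of whole multiples of 1 read, where evenly spread values would give 30%. The depth of each library was the searched value that made this share largest. The 30% holds for a fixed depth, and how far the search raises the share was not examined.

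On the log2(RPKM + 1) scale, limma 3.58.1 (R 4.3.3) with trend and robust moderation compared 3 dKO with 3 control libraries, without a block, for every gene whose mean reached 1 RPKM. In simulated data for dKO against control, with 200 changed genes in each of 5 sets of 11050 to 11074 tested genes, it recovered 59.4% of 1.5-fold, 97.3% of 2-fold and 93.4% of 4-fold changes. Every simulated gene had the same noise, the median SD over tested genes, and no simulated library stood apart. These shares therefore need not hold for real genes that vary more, such as Psmb5. Each simulated set changed 200 genes, beside 2205 called in the data, and with fewer changed genes the adjusted p threshold is harder to pass. A changed gene whose mean fell under 1 RPKM counted as not recovered. The 13 alternatives used 0.1 as the pseudocount, every gene unfiltered, a filter of 1 RPKM in at least 3 libraries, limma without its robust option, median-ratio scaling, quantile normalization, a replicate block and each library left out. Members and lists were chosen with earlier results of these data known. Named genes were the called members, the 3 largest and 3 smallest changes of each particle, a fixed set (the catalytic, tissue-restricted and immune subunit genes, Psmd14, Psmd4, Psmd1, Psmd2, Psmc1, Adrm1, Shfm1, Pomp, the activators and inhibitor, Nfe2l1 and Nfe2l2), and up to 3 called genes per helper list. Psma3, Psma4, Psma5, Psma6, Psmb1, Psmb2, Psmb4, Psmc3, Psmd5, Psmd13, Irf1, Tap1 and Gbp2 were named after their values were seen. Paaf1, Psme2b, Tf and Ly6g were not analysed here, and some other genes are not reported here. Further marker lists of lymphocyte and neutrophil (0 of 3 called), stellate (1 of 11 higher), endothelial (0 of 10) and erythroid (0 of 5) genes were counted. Promoters came from RefSeq GRCm38.p6 and transcript lengths from GENCODE M21, matched by symbol. Figures used Python 3.11.15 with matplotlib 3.10.9.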

Additional observations from a re-analysis of the deposited data

How the results depend on the processing

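Median-ratio scaling gave 873 higher and 614 lower genes (1965 and 240 as reported), with 5 members called, 4 in the core and 1 in the regulatory particle. Quantile normalization gave 727 and 554, with 2 core and 0 regulatory members. Without a filter 145 genes were lower, and 1 member was called, 0 in the core and 1 in the regulatory particle. With a replicate block 0 members, 0 core and 0 regulatory, were called, and of the named helper genes Ddi2 (limma adjusted p = 0.0719), Ubb (0.07) and Sqstm1 (0.104) lost their calls. The deviations of same-numbered libraries correlated at -0.0098 to -0.10, and those of other pairs at -0.045 to 0.099. These values show no pairing by number but cannot exclude one. With 1 library left out, 763 to 1992 genes were higher and 90 to 241 lower, 0 to 3 members, 0 to 1 core, 0 to 2 regulatory and 2 to 7 helper genes were called, and the core minus regulatory difference was -0.45 to -0.19. Without control replicate 2, 1992 genes were higher and 241 lower, with 3 members called. Without control replicate 1 these counts were 763, 90 and 0. Each of these fits had fewer degrees of freedom than the main fit, and what moved the counts was not tested.

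Among genes named by the rule, uncalled log2 changes that changed sign after median-ratio scaling and quantile normalization were Nfe2l1 (-0.15 and -0.025), Psmc1 (-0.16 and -0.12), Psmd14 (-0.099 and -0.064), Psmd2 (-0.24 and -0.13), Psmd4 (-0.12 and -0.001), Psme4 (-0.085 and -0.013) and Psmf1 (-0.061 and -0.073). With 1 library left out, log2 changes of these rule-named genes that changed sign ran from -0.25 to 0.068 for Pomp, -1.22 to 0.42 for Psmb8, -0.95 to 0.74 for Psmb9 and -1.02 to 0.12 for Psmb10, each positive without control replicate 2. Psma1 ran from -0.15 to 0.17 (0.072 without dKO replicate 2), Psmd1 from -0.090 to 0.030 (0.012 without dKO replicate 2), Psmc1 from -0.026 to 0.30, Psmd2 from -0.034 to 0.12, Psme3 from -0.13 to 0.12 and Shfm1 from -0.44 to 0.055. Of 455 values of 35 named genes under the alternatives, 370 kept direction and side of the threshold. These include uncalled genes that stayed uncalled. Of the rest, 50 lost a call, 9 gained one and 26 changed sign. The called members kept their calls less often, Psmb7 in 6, Psmd8 in 5 and Psmd10 in 4 of 13 alternatives. Members and helper genes outside the rule also changed sign, among them Psmd3, Psmd5, Psmd6 and Psmd11 after both scalings, Psma7 and Psmb4 without control replicate 2, and Psma3 and Psmb2 without dKO replicate 3. Depth was only estimated, so no counting error is given per gene, and low members such as Psma5 rest on few reads. Among tested members the SE of the log2 change was largest for Psmb5 (0.455) and Psmb4 (0.329), beside 0.304 for Psma5.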
